A study of Hordeum vulgare with 28 samples.

Results

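Barley genes of the identifier class EPlHVUG that gave a well-measured signal in leaf RNA-seq libraries were examined across control, mite-infested and wounded leaves. The count table held 25592 genes, of which 1381 had identifiers starting with EPlHVUG and the other 24211 were MLOC gene models. The members were the EPlHVUG genes whose mean over all 28 libraries was at least 5 and below 1000 CPM (counts in every 1000000 counts of the library), which were 38 genes. Of the remaining EPlHVUG genes, 1199 had no count in any library, 142 had counts but a mean under 5 CPM, and 2 had a mean of 1000 CPM or more. The mean level over all groups is what this rule used, and it is given only as a description. In the study's ortholog table, made by reciprocal protein searches against *Arabidopsis thaliana*, 34 of the 38 matched a gene of the plastid genome. The other 4 had no entry there and are called by identifier.

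The plants were of the barley (*Hordeum vulgare*) cultivar Morex, 30 days old, and the tissue was a section of leaf number 5 bounded by wax barriers, which the controls carried as well. The 7 groups held 4 libraries each, from separate leaves. They were controls (C), leaves with adult females of the grass specialist *Oligonychus pratensis* for 2 h (O2, 400 mites per section) or 24 h (O24, 200 mites), leaves with adult females of the generalist *Tetranychus urticae* for 2 h (T2, 400 mites) or 24 h (T24, 200 mites), and leaves pressed with sandpaper and collected after 2 h (W2) or 24 h (W24). The mite numbers differed between the time points, so time and mite number cannot be told apart, and 1 control group served both time points. Library totals ranged from 11708010 to 38321258 counts, and the smallest count of any member in any library was 20.

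The plastid genome encodes core subunits of the photosynthetic complexes, of the ATP synthase and of the NDH complex that returns electrons to the plastoquinone pool, together with the large subunit of Rubisco and part of the plastid's own ribosomes and RNA polymerase. The remaining subunits, including the light-harvesting proteins, are encoded in the nucleus and imported. Plastid genes are largely transcribed together from shared promoters and then processed, and their RNA levels depend strongly on RNA stability. Unlike nuclear mRNAs, most plastid transcripts carry no long poly(A) tail, and short tails on them mark RNA for decay. The libraries were made by poly(A) selection, so the values are the plastid reads that this selection carried through, not the total plastid RNA, and a change in level cannot be told apart from a change in tail addition. In these whole-leaf sections, fewer chloroplasts or cells and less RNA in each likewise cannot be told apart.

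The members covered the plastid complexes unevenly. All 6 genes of the ATP synthase in the ortholog table were members, as were 9 of 15 genes of photosystem II, 5 of 7 of photosystem I (its assembly factors *ycf3* and *ycf4* included), 4 of 6 of the cytochrome b6f complex and 5 of 9 of the NDH complex. Of the genes for ribosomal proteins, 3 of 15 were members, and of the 4 genes for RNA polymerase subunits none was, all having a mean under 5 CPM. The Rubisco gene *rbcL* and the envelope membrane protein gene *cemA* completed the set. At the lower limit, *rpl33* (5.17 CPM), *petG* (5.76 CPM) and *ycf3* (5.86 CPM) lay just inside, and the nearest gene outside averaged 4.71 CPM. At the upper end, *psbC* (325 CPM) and *psbD* (258 CPM) were the members with the highest means, while *psaC* (1736 CPM) and *psbA* (2336 CPM) lay above the limit. These values are not corrected for gene length and do not rank the genes by abundance.

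Together the 38 genes took a small share of each library, and that share was lowest after 24 h of *O. pratensis*. Their summed level was 2935, 2821, 2467 and 2459.6 CPM in the 4 C libraries (mean 2671 ± 244 CPM, SD, n = 4). In O24 the sums were 1955, 1894, 1386 and 1193 CPM (mean 1607 ± 376 CPM). All 4 O24 libraries lay below all 4 C libraries. In W24 the sums were 2052, 2040.0, 1739.7 and 2083 CPM, again all below C, and in T24 they were 1885, 2893, 2068 and 1838 CPM. Of the T24 libraries only replicate 2 reached the range of C, and without it the T24 mean was 1930.4 ± 121 CPM (n = 3). At 2 h the sums overlapped with C: O2 gave 2348, 3010.0, 2827 and 2787 CPM, T2 gave 2641, 3106, 2424 and 2013 CPM and W2 gave 4386, 2809, 2013 and 2276 CPM. The value of W2 replicate 1 was the highest of all 28 libraries, and the other 3 W2 libraries averaged 2366 ± 406 CPM.

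**Figure D1:**
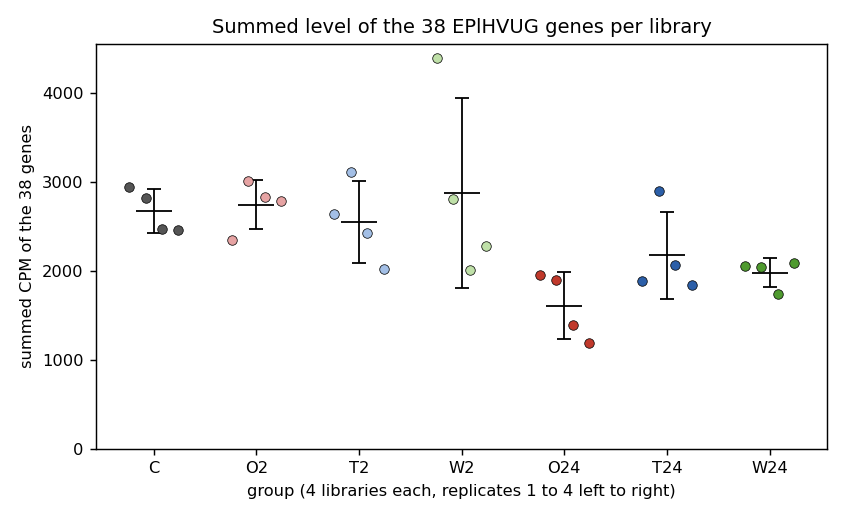
Summed CPM of the 38 EPlHVUG genes in each library (points, replicates 1 to 4 from left to right in each group), with the mean and SD of the 4 libraries of a group (bars). The O24 libraries, from 1193 to 1955 CPM, and the W24 libraries, from 1739.7 to 2083 CPM, sit below the 4 C libraries, while W2 replicate 1 at 4386 CPM stands above all others.

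Whether single genes differed from the controls was asked with edgeR's quasi-likelihood test over all 16948 genes that passed the filter on low counts, among them all 38 members. A gene was called at a Benjamini-Hochberg adjusted p under 0.01 with an absolute log2 fold change over 1, on libraries scaled by trimmed means of M-values (TMM). In O24 against C, 18 members were called, all lower, where 35.6% of all tested genes were called and 15.6% were called lower. The estimate was below 0 for 38 of 38 members, with a median of -1.02 (a 2.02-fold lower level) and a range from -1.65 to -0.36, while the median over all tested genes was 0.01. Over all tested genes, 50.4% of estimates were above 0. The members share their libraries and moved together within groups, so their 38 directions are not independent of each other in any comparison. Without the fold minimum, 28 members had an adjusted p under 0.01, against 64.3% of all tested genes (31% lower), and at an adjusted p under 0.05 there were 33, against 72.7% (35.5% lower). On CPM, all 4 O24 libraries lay below all 4 C libraries in 19 members, against 22.9% of all tested genes. The number of called members rested partly on O24 replicate 4, the library with the lowest sum, since 10 were called without it, where 33.8% of all tested genes were. With library size alone in place of TMM, 5 were called, where 35.7% of all tested genes were, and the median of the members was -0.79 beside a median of 0.23 over all tested genes.

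**Figure D2:**
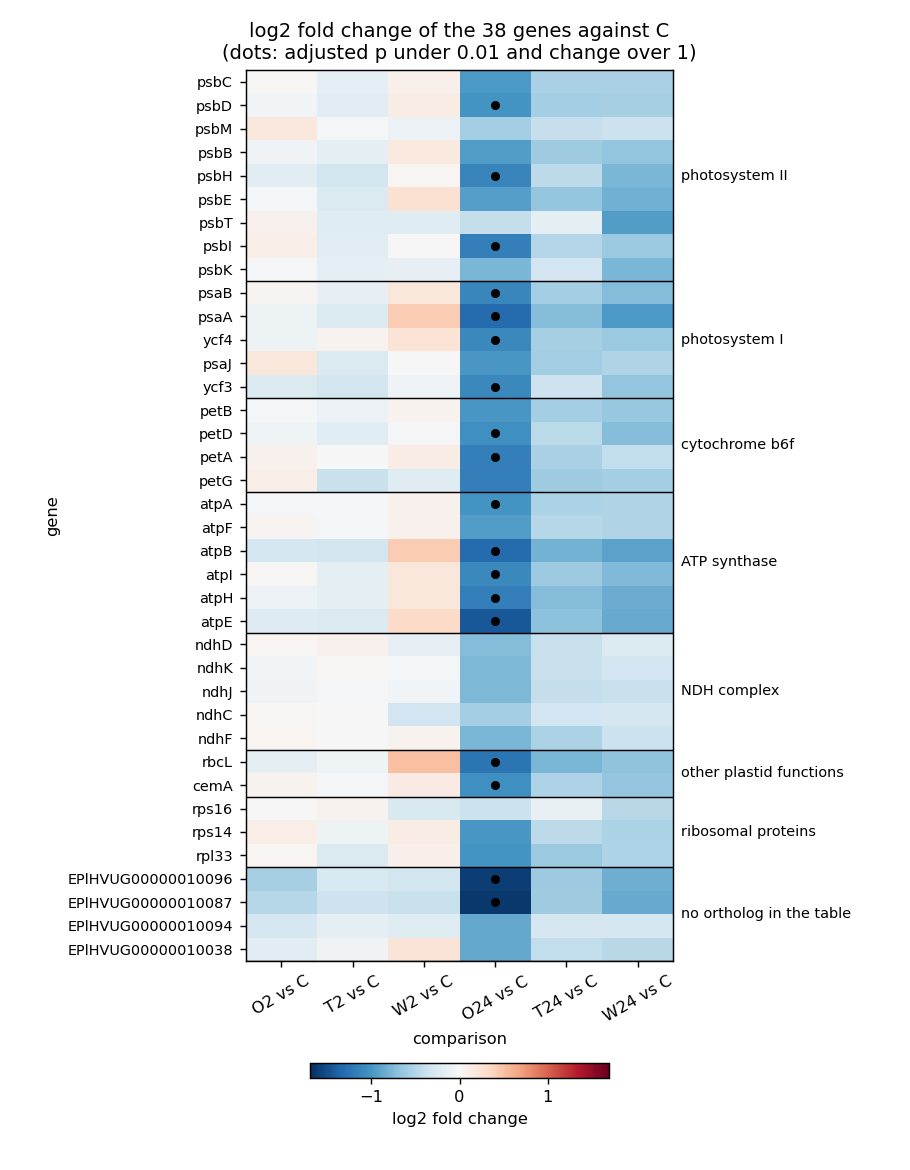
Log2 fold change of the 38 genes (rows, grouped by complex and ordered by mean CPM within a group) in each of the 6 treatments against C (columns), from blue (lower) to red (higher). Dots mark the 18 calls, all of which lie in the O24 column, where estimates run from -1.65 to -0.36.

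Among the 9 photosystem II genes, 3 were called lower in O24 (*psbD*, *psbH* and *psbI*), 5 had an adjusted p under 0.01, and the median log2 fold change was -0.95. The gene *psbC* encodes the antenna protein CP43. It stood at 390.2, 426, 354 and 306 CPM in C and at 268, 256, 204 and 139 CPM in O24, so that the groups did not overlap, with a log2 fold change of -0.98 (SE 0.20, adjusted p = 8.62e-05), just short of the fold minimum. For *psbD*, which encodes the reaction centre protein D2, the C libraries gave 318, 348, 296 and 228 CPM and the O24 libraries 212, 199, 159 and 113 CPM. Its groups did not overlap either, and it was called with a log2 fold change of -1.01 (SE 0.21, adjusted p = 0.000151). The calls of *psbH*, a small subunit that can be phosphorylated, and *psbI*, a small subunit beside the reaction centre, had log2 fold changes of -1.12 (adjusted p = 0.00184) and -1.17 (adjusted p = 0.000243). The gene *psbB*, which encodes the antenna protein CP47, was estimated at -0.95 (adjusted p = 0.000775). The small-subunit genes *psbM* (-0.58, adjusted p = 0.0705), *psbK* (-0.77, adjusted p = 0.0954) and *psbT* (-0.40, adjusted p = 0.507) did not pass the test at an adjusted p of 0.05. For *psbM* the C libraries gave 269, 292, 148 and 184 CPM and the O24 libraries 238, 168, 166 and 119 CPM, and 3 of the 4 O24 values lay within the range of C. The gene *psbE*, for the alpha subunit of cytochrome b559, had an adjusted p of 0.0165 at -0.94. In the gene list of a later Morex assembly *psbD* and *psbC* overlap, so their shared stretch makes the separate values uncertain.

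Photosystem I had calls in 4 of its 5 members, with a median of -1.09. Its reaction centre is a pair of large proteins encoded by *psaA* and *psaB*. The *psaA* level was 135, 105, 90.6 and 79.2 CPM in C and 66.2, 61.1, 41 and 23.8 CPM in O24, and it was called lower with a log2 fold change of -1.31 (SE 0.34, adjusted p = 0.00128). For *psaB* the corresponding values were 222, 193, 172 and 167 CPM and 135, 135, 82 and 54.3 CPM, with a log2 fold change of -1.11 (SE 0.26, adjusted p = 0.000539). Both genes showed no overlap between the groups, and both had their lowest value of all 28 libraries in O24 replicate 4. The assembly factor genes *ycf4* (-1.09, adjusted p = 0.00021) and *ycf3* (-1.09, adjusted p = 0.000378) were called as well. The fifth member, the small-subunit gene *psaJ*, had a log2 fold change of -0.99 (SE 0.44, adjusted p = 0.0475) and was not called. Above the CPM limit, *psbA*, for the reaction centre protein D1, had a log2 fold change of -1.05 (SE 0.30, adjusted p = 0.00268), and *psaC*, for the iron-sulphur subunit of photosystem I, had a log2 fold change of -0.49 (SE 0.10, adjusted p = 0.00015).

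The cytochrome b6f complex, which links the photosystems, had 2 called genes among 4 members, with a median of -1.10. The gene *petA*, for cytochrome f, gave 6.79, 8.73, 8.16 and 6.25 CPM in C and 5.11, 4.59, 2.79 and 2.99 CPM in O24. These groups were separate, and the call had a log2 fold change of -1.17 (SE 0.21, adjusted p = 1.86e-05). The gene *petD*, for subunit IV, was called at -1.04 (adjusted p = 0.00449) although its O24 and C libraries overlapped. The gene *petB*, for cytochrome b6, gave 69.9, 70.1, 57.6 and 55.8 CPM in C and 48, 40.7, 36.4 and 23.9 CPM in O24, and its log2 fold change of -0.98 (adjusted p = 0.000127) missed the fold minimum.

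Of the groups with more than 2 members, the ATP synthase had the highest share of calls, with 5 of 6 members called lower. Photosystem I was close with 4 of 5, and 15.6% of all tested genes were called lower. The ATP synthase genes had a median of -1.14 and an adjusted p under 0.01 for all 6. The calls of *atpA* and *atpI* held under 12 and 13 of the 19 alternatives described below. The gene *atpE*, for the epsilon subunit, had the largest decrease among the members with an ortholog. Its values were 11.4, 11.2, 12 and 8.4 CPM in C and 5.65, 4.84, 3.47 and 4.42 CPM in O24, with no overlap and a log2 fold change of -1.44 (SE 0.22, adjusted p = 2.49e-06). The catalytic core genes *atpA* (alpha subunit, -1.02, adjusted p = 1.39e-05) and *atpB* (beta subunit, -1.30, adjusted p = 0.00231) were called. So were the membrane rotor and stator genes *atpH* (-1.18, adjusted p = 0.00134) and *atpI* (-1.09, adjusted p = 0.00622). The gene *atpF*, for a stator subunit, gave 101, 104, 95.9 and 86 CPM in C and 70.2, 62.5, 48.3 and 53 CPM in O24. Its groups were separate at -0.94 (adjusted p = 4.02e-06), just short of the fold minimum. The genes *atpE* and *atpB* overlap in the later assembly, so their separate values are uncertain.

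The NDH complex had smaller estimates. None of its 5 members was called in O24, the median was -0.77 and the range was -0.77 to -0.58, although all 5 had an adjusted p under 0.05. The gene *ndhK*, for a subunit of the peripheral arm, was the member with the smallest spread between replicates. It stood at 42.7, 38.5, 39.7 and 39.5 CPM in C and at 30.4, 29.7, 23.9 and 26 CPM in O24, with a log2 fold change of -0.77 (SE 0.11, adjusted p = 4.03e-07). The groups were far apart relative to this spread, although the change was under the fold minimum. For *ndhD*, a membrane subunit, the C values of 296, 271, 219 and 303 CPM overlapped with the O24 values of 177, 220.2, 148 and 217 CPM, at -0.74 (adjusted p = 0.00132). The genes *ndhK* and *ndhC* overlap in the later assembly, so their separate values are uncertain. The other subunit genes were *ndhJ* (-0.77, adjusted p = 0.000149), *ndhF* (-0.77, adjusted p = 0.0147) and *ndhC* (-0.58, adjusted p = 0.0463). Whether the NDH genes changed less than the other complexes was not tested.

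The gene *rbcL* encodes the large subunit of Rubisco, the enzyme that fixes CO2. It gave 177, 118, 158 and 129 CPM in C and 97.8, 93, 57.5 and 37.9 CPM in O24, without overlap, and was called with a log2 fold change of -1.25 (SE 0.26, adjusted p = 0.000167). In contrast to the O24 values, its W2 values were 308, 191, 156 and 190.5 CPM, and its estimate in W2 was the highest of any member in any treatment at 0.51, with an adjusted p of 0.0832. The envelope protein gene *cemA* was called in O24 at -1.05 (adjusted p = 0.0014), with overlapping groups. Among the 3 ribosomal protein genes there was no call in O24. The gene *rps14*, for a protein of the small subunit, had a log2 fold change of -0.98 (adjusted p = 0.000227) with separate groups, from 65.1, 63.3, 55.1 and 55.3 CPM in C to 42, 46.1, 31 and 21.1 CPM in O24. The gene *rps16*, also for a small-subunit protein, gave 67.7, 75, 51.8 and 77.2 CPM in C and 65.4, 69.5, 45.2 and 66.5 CPM in O24. These ranges overlapped widely, and its estimate of -0.36 (SE 0.25, adjusted p = 0.2) was the nearest to 0 of any member in O24.

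**Figure D3:**
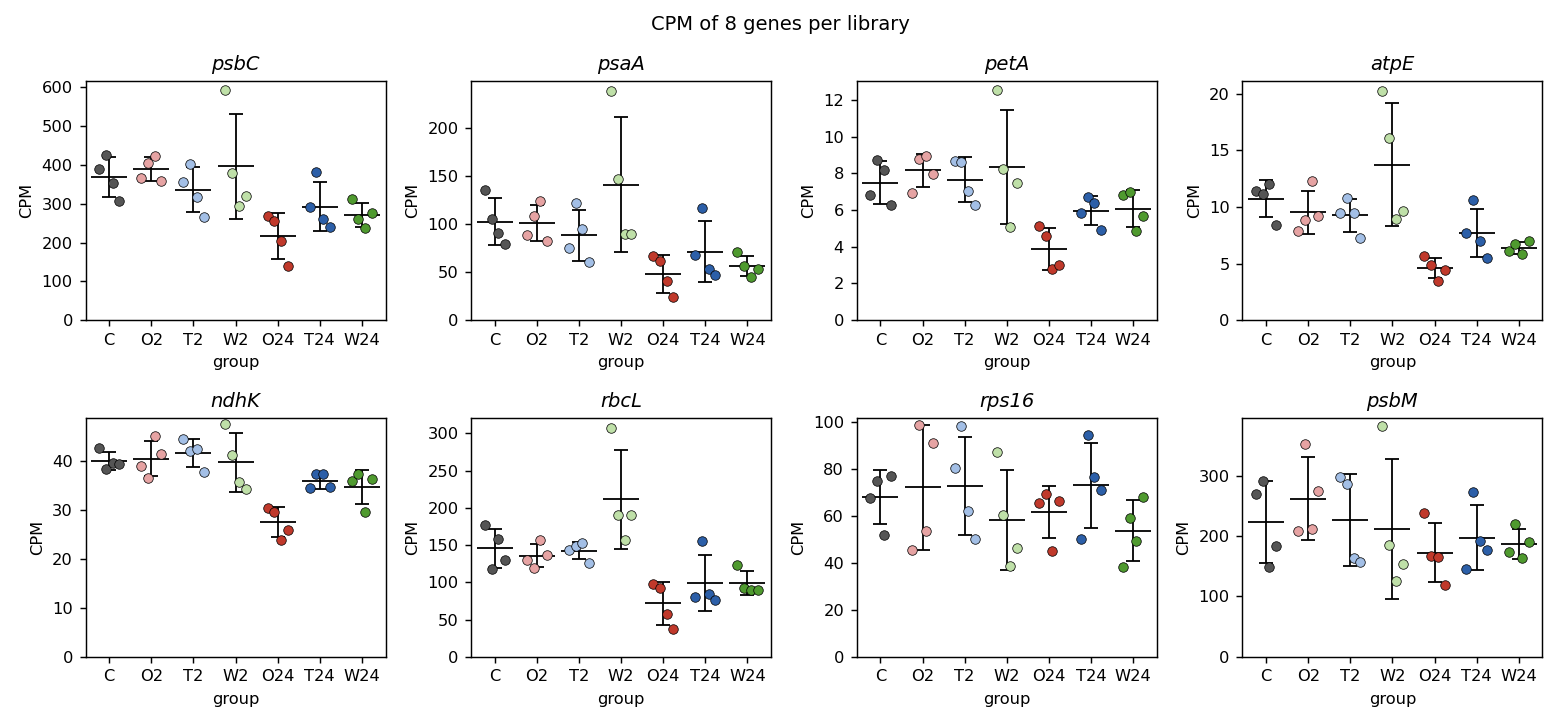
CPM of 8 genes in each library (points), with the mean and SD of the 4 libraries of a group (bars). In *psbC*, *psaA*, *petA*, *atpE*, *ndhK* and *rbcL* the 4 O24 libraries sit below the 4 C libraries, whereas in *rps16* (45.2 to 69.5 CPM in O24) and *psbM* the groups overlap.

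The 4 members without an ortholog entry were all lower in O24 at an adjusted p under 0.01, and 2 of them were called. These 2, EPlHVUG00000010087 and EPlHVUG00000010096, fall outside the rule for named genes because their groups overlapped, and they were singled out after their values were seen. The first gave 40, 26.1, 57.5 and 82.8 CPM in C and 14.5, 32.4, 14.4 and 16.6 CPM in O24, with a log2 fold change of -1.65 (SE 0.37, adjusted p = 0.000358). The other gave 47.7, 30.5, 79.5 and 111 CPM in C and 20.8, 45.1, 16.3 and 22.2 CPM in O24, with a log2 fold change of -1.60 (SE 0.40, adjusted p = 0.000921). Their log2 fold changes were the largest decreases of all members, and in both genes C replicate 2 and O24 replicate 2 overlapped. Within groups their levels moved nearly together (Pearson r = 0.974 over the 28 deviations from group means, given as a description).

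In T24 against C, edgeR called none of the 38 members (DESeq2 also 0), where 19.9% of all tested genes were called. The estimates were nonetheless below 0 for 38 of 38, with a median of -0.54 and a range from -0.81 to -0.12. Over all tested genes, 50.9% of estimates were above 0. At an unadjusted p under 0.05 there were 18 members, against 30.4% of all tested genes lower, and at an adjusted p under 0.05 there were 13, against 61% of all tested genes (28.6% lower). Without the fold minimum, 3 members had an adjusted p under 0.01, all lower, against 49.7% of all tested genes in either direction. They were *ndhK* (-0.38, adjusted p = 0.00299), *atpF* (-0.49, adjusted p = 0.007) and *atpE* (-0.69, adjusted p = 0.00792). These counts depended on single libraries and on the scaling. For those fits the share of all tested genes without the fold minimum was not computed. At an adjusted p under 0.01 there were 16 without T24 replicate 2, none without C replicate 1, 1 without C replicate 3, T24 replicate 1 or T24 replicate 4, and none with library size alone. At an adjusted p under 0.05 there were 28 without T24 replicate 2, 7 without C replicate 1, 5 without T24 replicate 4 and none with library size alone. T24 replicate 2 lay above its group mean in 37 of 38 members. Without that library 4 members were called lower, where 20.4% of all tested genes were called, and they were *rbcL* (-1.13, adjusted p = 0.00054), *atpH* (-1.12, adjusted p = 0.00346), *psaA* (-1.13, adjusted p = 0.00653) and *atpB* (-1.17, adjusted p = 0.00934). For *rbcL*, T24 gave 80.8, 156, 84 and 75.8 CPM, of which only that of replicate 2 reached the C range. On CPM, all 4 T24 libraries lay below all 4 of C in 1 member, *ndhK* (34.6, 37.3, 37.4 and 34.7 CPM in T24), against 13.6% of all tested genes.

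The estimates were also below 0 at 24 h after wounding. In W24 against C, edgeR called none (DESeq2 also 0), where 6% of all tested genes were called and 0.277% were called lower. The estimate was below 0 for 38 of 38 members, with a median of -0.63 and a range from -0.98 to -0.24. Over all tested genes, 49% of estimates were above 0. There were 27 members at an unadjusted p under 0.05, against 14.2% of all tested genes lower, and 10 at an adjusted p under 0.05, against 20.8% of all tested genes (7.03% lower). Without the fold minimum, *atpE* alone had an adjusted p under 0.01, against 12% of all tested genes in either direction. Its estimate was -0.86 (adjusted p = 0.00496), with W24 values of 6.08, 6.69, 5.83 and 6.98 CPM. Here too the counts depended on single libraries and on the fit. For those fits the share of all tested genes without the fold minimum was again not computed. No member passed 0.01 without C replicate 1, C replicate 3 or W24 replicates 1, 2 or 3, each left out alone, or with library size alone, whereas 16 passed with C and W24 fitted alone. At 0.05 the count was 1 with library size alone, 25 with those groups fitted alone, 2 without C replicate 1 or W24 replicate 3, 3 without W24 replicate 4, 4 without C replicate 3 and 5 without W24 replicate 2. The replicates were close to each other in W24, and on CPM all 4 W24 libraries lay below all 4 C libraries in 20 members, against 3.29% of all tested genes. The 6 ATP synthase genes were all among these 20, with estimates from -0.91 to -0.51. The members share their libraries, so these 20 are not independent of each other. The lowest estimate was that of *psaA* (-0.98, adjusted p = 0.0378), with 70.6, 56.4, 44.6 and 53.2 CPM in W24. The NDH genes had a median of -0.33. The O24, T24 and W24 comparisons share the 4 C libraries, so their directions are not independent of each other.

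At 2 h no member was called in any treatment by edgeR or DESeq2, and none had an unadjusted p under 0.05, against 14.6% of all tested genes in O2, 13% in T2 and 73.2% in W2. The members varied more between replicates (median biological coefficient of variation 0.255 against 0.115 in MLOC genes of the same CPM range). A change of a given size was therefore less likely to pass in them. In W2 the SE ran from 0.10 for *ndhK* to 0.83 for *rpl33*. In O2, where 2.64% of all tested genes were called, the median log2 fold change of the members was -0.02 and the range -0.57 to 0.19. On CPM, all 4 O2 libraries lay below all 4 C libraries in 1 member, *ycf3*, against 2.05% of all tested genes. In T2, where 2.49% were called, the median was -0.16 with a range from -0.38 to 0.07, and 31 of 38 estimates were below 0. In W2, where 31.8% of all tested genes were called, the median was 0.07 and the range -0.38 to 0.51. The direction in W2 depended on 1 library: without W2 replicate 1 the median was -0.16, and 32 of 38 estimates were below 0 in place of 16. With upper-quartile scaling the median of the members was -0.13 and that of all tested genes -0.22, so that the members still lay above it. In W2 replicate 1, *psaA* stood at 238 CPM and *psbC* at 594 CPM, while the other W2 libraries lay at 89.1 to 147 CPM and 295 to 378 CPM.

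The mites were also compared with each other. At 2 h no member was called between O2 and T2 (edgeR and DESeq2), as no gene was (0% of all tested), and no member had an unadjusted p under 0.05, against 3.05% of all tested genes. At 24 h no member was called between O24 and T24 by either tool, where 9.33% of all tested genes were called. The estimate was below 0 for 38 of 38 members, with a median of -0.46 and a range from -1.04 to -0.19. Over all tested genes, 47.9% of estimates were above 0. An unadjusted p under 0.05 was found in 17 members, against 22.9% of all tested genes lower. At an adjusted p under 0.05 there were 9 members, against 38.1% of all tested genes (18.5% lower). Without the fold minimum, *ndhK* had an adjusted p under 0.01, against 26.6% of all tested genes in either direction, at -0.39 (SE 0.11, adjusted p = 0.00559). No member passed 0.01 without T24 replicate 1, 2 or 3 or O24 replicate 3 or 4, each left out alone, or with O24 and T24 fitted alone. Without T24 replicate 2, 1 member had an adjusted p under 0.05, the median was -0.27 and 33 of 38 estimates were below 0. At 0.05 there were 2 members without O24 replicate 3 or 4, 14 without T24 replicate 4 and 15 without O24 replicate 2. The shares of all tested genes at these limits were not computed with a library left out. The *ndhK* T24 values of 34.6, 37.3, 37.4 and 34.7 CPM all lay above its O24 values. In 3 members all 4 O24 libraries were below all 4 T24 libraries on CPM, against 17.5% of all tested genes, and *atpF* (-0.46, adjusted p = 0.0187) was another of them. Without O24 replicate 2, EPlHVUG00000010087 (-1.43, adjusted p = 0.00566) and EPlHVUG00000010096 (-1.42, adjusted p = 0.00938) were called lower in O24, where 9.14% of all tested genes were called.

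The plastid-encoded subunits work beside nuclear-encoded ones, and 7 MLOC genes with such roles were found in the part of the ortholog table used here. They were the light-harvesting genes *LHCB6*, *LHCB3*, *LHCB2.3* and *LHCA1*, the photosystem II subunit gene *PSBX*, the ATP synthase stator subunit gene *ATPG*, and *SIG3*, a sigma factor of the plastid-encoded RNA polymerase. In W2 against C, 6 of these 7 were called lower (12.6% of all tested genes were), with a median of -1.40, while none of the 38 members was called and their median was 0.07. For *LHCB3* the C libraries gave 4576, 3544, 4543 and 4197 CPM and the W2 libraries 1781, 977, 1394 and 1296 CPM, so the groups were far apart. In O24 all 7 were called lower (15.6% of all tested genes were), with a median of -2.18 beside -1.02 in the members. In T24, 6 of 7 were called lower (5.79% of all tested genes were), with a median of -1.41 beside -0.54. In W24 none of the 7 was called by edgeR, where 6% of all tested genes were called. An unadjusted p under 0.05 was found in 4 of them, against 14.2% of all tested genes lower. The median was -0.48 beside -0.63. The estimate was above 0 in 1 of the 7, *SIG3* (0.34, mean 8.44 CPM in W24 and 6.11 CPM in C). The medians are given side by side, and the difference between the lists was not tested. The summed level of the 7 genes in W2 was 7108, 5613, 8028 and 6339.7 CPM, so that W2 replicate 1, the highest library for the members, was not the highest here.

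**Figure D4:**
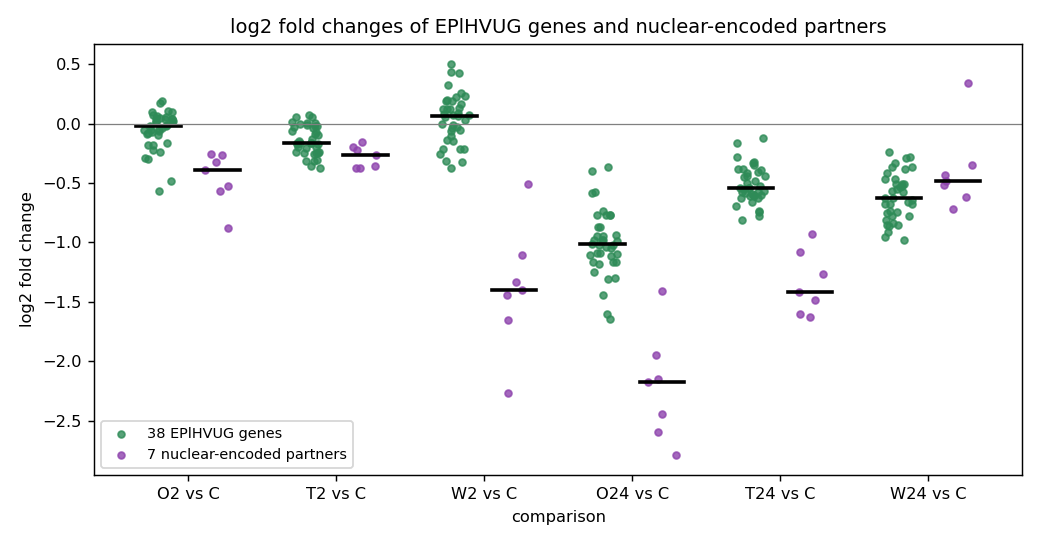
Log2 fold changes against C of the 38 EPlHVUG genes (green) and of 7 nuclear-encoded partner genes (purple) in the 6 treatments, 1 point per gene, with the median as a bar. In W2 the green points centre on 0.07 and the purple points on -1.40, while in W24 the medians are -0.63 and -0.48.

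Over the 7 groups the members had similar profiles. The lowest group mean of log2 CPM was that of O24 in 36 members and that of W24 in the other 2, and the highest was in W2 for 17 members, in O2 for 10, in C for 8 and in T2 for 3. These shares were not computed over all tested genes. The members whose 7 group means were most like those of *psbC* were *atpI* (Pearson r = 0.998), *psbD* (0.997) and *psaB* (0.994), over 7 groups that share their libraries. The least alike were *psbT* (0.485) and *rps16* (0.601).

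Within groups the members also moved together from library to library. As deviations from the group means of log2 CPM, the median Pearson r over the 703 pairs of members was 0.681, with 620 pairs above 0, as a description over 28 deviations that share library and scaling. The same was not computed for pairs of MLOC genes. Neighbouring members in the plastid gene order of the later assembly (23 pairs, such as *psaB* with *psaA* at 0.953 and *rps14* with *psaB* at 0.967) had a median r of 0.850, and the other 538 pairs of members with an ortholog had 0.730. The other pairs include most of those of *rpl33*, *petG* and *psaJ*, whose median r with the other 35 members was -0.21. The neighbours include the overlapping genes *psbD* and *psbC*, *ndhK* and *ndhC*, and *atpE* and *atpB*. The difference between neighbours and other pairs was not tested. Neighbours had similar estimates in O24, with a median absolute difference of 0.14 between log2 fold changes against 0.22 for the other pairs. In the longest run of members, from *atpI* through *atpH*, *atpF*, *atpA*, *rps14*, *psaB* and *psaA* to *ycf3*, the 8 estimates in O24 lay between -1.31 and -0.94. The common part was largest in W2 replicate 1, 1.52-fold above its group mean on average over the members, in T24 replicate 2 (1.44-fold above) and in O24 replicate 4 (0.749-fold). The spread of single genes was larger in the members than elsewhere, with a median biological coefficient of variation of 0.255 against 0.115 in the 11688 MLOC genes of the same CPM range.

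A few members followed the replicate number instead. The gene *rpl33*, for a protein of the large ribosomal subunit, gave 1.18, 1.53, 11.3 and 9.28 CPM in C, 3.46, 2.13, 7.28 and 12.3 CPM in W2 and 1.08, 1.2, 7.37 and 4.14 CPM in O24. In each of the 7 groups both replicates 1 and 2 were below both replicates 3 and 4, an order found in 0.0295% of all tested genes. Over all groups the 14 libraries numbered 1 or 2 lay between 1.08 and 3.46 CPM, and the 14 numbered 3 or 4 between 4.14 and 12.3 CPM, a ratio of means of 5.19. It was the only gene of the 16948 tested whose libraries numbered 1 or 2 were all lower than those numbered 3 or 4 (0.0059%), and no gene (0.0%) had them all higher. Its neighbours *psaJ* and *petG*, a small subunit of the cytochrome b6f complex, showed the same order in 6 of 7 groups, with ratios of 1.91 and 2.13. In O24 against C the estimates were -1.02 for *rpl33* (SE 0.88, adjusted p = 0.299) and -1.17 for *petG* (SE 0.52, adjusted p = 0.0482), and neither was called. In C, *petG* gave 4.51, 3.65, 7.96 and 11.2 CPM and *psaJ* gave 6.18, 4.07, 10.2 and 11.4 CPM. Within groups these 3 genes correlated with each other at r between 0.860 and 0.941, and with the other 35 members at a median of -0.21. Of the 38 members, 33 had a lower mean in replicates 3 and 4, with a median ratio of 0.798 over all members. The gene *psbE* went the opposite way to *rpl33* in 7 of 7 groups, as did 0.0236% of all tested genes, with 7.48 to 23.6 CPM in the libraries numbered 1 or 2 and 2.79 to 12.1 CPM in the others. Above the CPM limit, *psbA* had the same order as *psbE* in 7 of 7 groups. Its mean was 2824 CPM in the libraries numbered 1 or 2 and 1847 CPM in the others, a ratio of 0.654. The split was noticed in the data and was given no test, and the labels do not say what libraries of the same number share. Library numbers in the count headers run through every group of replicate 1 first, then of replicates 2, 3 and 4.

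**Figure D5:**
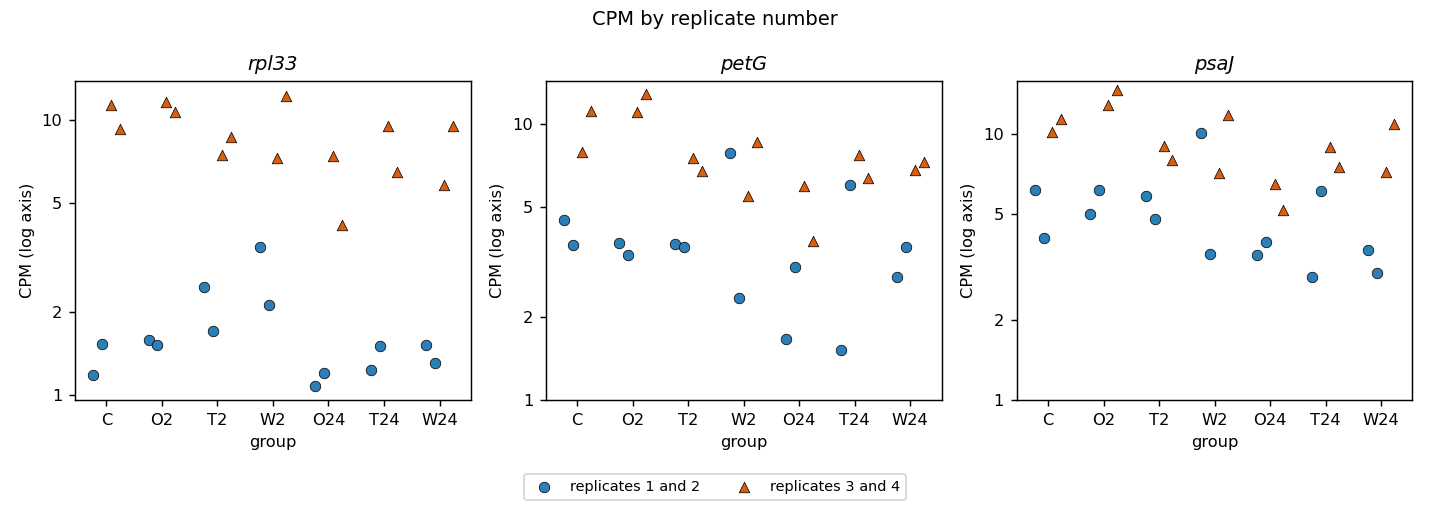
CPM of *rpl33*, *petG* and *psaJ* in each library (log axis) by group, with replicates 1 and 2 as circles and replicates 3 and 4 as triangles. For *rpl33* the circles lie between 1.08 and 3.46 CPM and the triangles between 4.14 and 12.3 CPM in all 7 groups.

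The 24-h differences were therefore also read within the replicate numbers. For O24 minus C on log2 CPM, the median over the members was -0.76 among replicates 1 and 2 and -1.34 among replicates 3 and 4, with 38 of 38 members below 0 in each. For W24 the medians were -0.57 and -0.61 (37 and 38 members below 0), and for T24 they were -0.46 and -0.66 (36 and 37 members). For W2 the median was 0.31 among replicates 1 and 2 and -0.24 among replicates 3 and 4, so its sign differed between them. Each set held 2 libraries per group, and the sets were chosen after the split was seen. The shares of all tested genes below 0 were not computed within them.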

How the data were processed

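RNA-seq was analysed in 28 libraries of 7 groups of 4. The authors prepared stranded poly(A)-selected libraries, aligned reads to the barley genome ASM3268v1 with STAR and counted uniquely aligned, strand-matched reads per gene with HTSeq. The submitters' processing notes give STAR 2.5.1b and HTSeq 0.6.0. What was deposited are these whole-number counts, without any normalization by the authors. Reads that also align to plastid sequence copied elsewhere in the genome were not counted.

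Members and gene lists were chosen with earlier results of these data known. Names came from the study's ortholog table (68 EPlHVUG identifiers, used here in part for MLOC genes), and all 68 symbols were found among the plastid genes of RefSeq (assembly MorexV3), used only for names and gene order. The rule for named genes took, of members with an ortholog, the 2 of highest mean CPM in each list and every called one, of members without, called genes whose replicates did not overlap those of C, and the 3 members most like *psbC*. Other members are named to account for the set or were chosen after their values were seen.

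Tests were run in edgeR 4.0.16 (R 4.3.3). Genes were kept by filterByExpr (minimum count 10), TMM factors were computed, and a robust quasi-likelihood model with 1 mean per group was fitted to all 28 libraries. Adjusted p-values are Benjamini-Hochberg over 16948 genes, and calls used the study's thresholds (0.01 and a log2 fold change of 1). P-values set a difference against the spread between leaves of a group, pooled over the 7 groups. That spread includes any difference between replicate numbers. Group means are on CPM, and correlations on log2 CPM (TMM-scaled, prior count 2). Replicates of a group differed beyond counting noise in all 42 pairs (chi-square per gene 8.59 to 96.6). The analysis was tested on simulated data for O24 against C, with each gene drawn independently and no effect of replicate number. The co-movement of the members was therefore not represented. Of 50 genes given a log2 change of -1, 82% had an adjusted p under 0.01 and 48% were called. At -1.5, 96% were called. Alternatives were DESeq2 1.42.0, other scalings, filters and thresholds, a fit of the compared groups alone, a replicate block and leaving out each library.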

Additional observations from a re-analysis of the deposited data

Results flagged for a closer look

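Within-group outliers were sought in 15 measures (the sum of the members and 14 named members) over 7 groups, 105 sets of 4 libraries, where chance alone gives about 1 in 20. A library stood apart in 5 of the 105. T24 replicate 2 was high for *petD* (89.6 CPM) and *rbcL* (156 CPM). W24 replicate 1 was high for *rbcL* (124 CPM). W24 replicate 3 was low for the sum of the members (1739.7 CPM), and O24 replicate 3 was low for *rps16* (45.2 CPM).

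Between the mites at 24 h, *ndhK* had an adjusted p of 0.00559 in edgeR's test of O24 against T24, at a log2 fold change of -0.39 and with all 4 O24 libraries below all 4 T24 libraries on CPM. Its adjusted p was no longer under 0.01 without T24 replicate 1, 2 or 3 or O24 replicate 3 or 4, each left out alone, or with O24 and T24 fitted alone.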

How the results depend on the processing

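All 38 estimates stayed below 0 in O24 against C under all 19 alternatives, and the median of the members minus that of all tested genes stayed between -1.13 and -0.88. The count of 18 called members moved to 5 with library size alone and to 28 without the fold minimum, and ranged from 10 (without O24 replicate 4) to 24 when each library was left out. The calls of *atpE*, *psaA*, *rbcL* and EPlHVUG00000010087 held under all 19 alternatives, whereas *atpA* and *psbD*, close to the fold minimum, held under 12. Without the fold minimum, 3 members were counted at an adjusted p under 0.01 in T24, 1 in W24 and 1 in O24 against T24. With the fold minimum kept and the limit on adjusted p raised to 0.05, 1 member was called in O24 against T24. Leaving out each library gave 0 to 4 calls in T24 against C and 0 to 2 in O24 against T24. In O2, T2, W2 and O2 against T2 all alternatives gave 0 calls. The median changed sign under 3 alternatives in O2 and 1 in O2 against T2, and in W2 without replicate 1. In W2 it was also below 0 with upper-quartile scaling, where the median of all tested genes was lower still. Library size alone moved the median of all tested genes to 0.23 in O24, 0.24 in T24 and 0.11 in W24. With the replicate block, 23 members were called in O24. As a check on pairing, 10 of 32 same-numbered pairs correlated above 0.1 over all tested genes (from -0.16 to 0.34). The study used randomized blocks, and the labels do not give them. Library numbers in the count headers run through every group of replicate 1, then of 2, 3 and 4, and name no block. The check on pairing does not show whether libraries of the same number share a block. The genes *rpl33* and *psbE*, and *psbA* above the CPM limit, split by number in all 7 groups. A replicate block of 2 levels, numbers 1 and 2 against 3 and 4, was chosen after seeing the data and gave 21 calls in O24. With the fold minimum, neither block changed the count in another comparison. Without it, the counts at an adjusted p under 0.01 were 11 in T24, 7 in W24 and 5 in O24 against T24 with the replicate block, and 12, 7 and 6 with its 2-level form. At 0.05 they were 21, 22 and 16 with the replicate block and 22, 23 and 16 with its 2-level form. The shares of all tested genes at these limits were not computed with either block. A lower limit of 1 CPM gave 50 members and that of 10 CPM gave 27. The lowest count of a member in a library was 20, and whether depth limits the members of lowest count was not tested.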
